A study of Mus musculus with 5 samples.

Results

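The genes considered here encode the proteasome, its activators and its assembly factors. They were chosen by name, as every gene row whose identifier maps to a symbol beginning with Psma to Psmg followed by a number, pseudogenes left out. This gave 50 of the 55411 genes in the tables. Of these, 7 encode the alpha ring and 7 the constitutive beta ring of the 20S core particle, 3 encode inducible beta subunits and 2 encode subunits known from testis and thymus. A further 6 encode the ATPases of the 19S base, 11 the other 19S subunits, 6 activators or an inhibitor, and 7 assembly chaperones. The remaining gene, Psmc3ip, carries a similar name but is known as a meiotic recombination factor and is no subunit.

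The data are FACS-seq libraries of olfactory sensory neurons that transcribe Olfr151, an odorant receptor that responds to acetophenone. All mice were 7-week-old males homozygous for Olfr151tm26Mom, a knock-in allele in which cells transcribing Olfr151 also make a green fluorescent protein, and control mice carried it too. Exposed mice received 5% acetophenone in DMSO for 5 h, and control mice DMSO alone for the same time. The libraries are 3 control pools, numbered 1, 2 and 3, and 2 exposed pools, numbered 1 and 3, and each pool combined the cells of 4 mice. One field of the labels gives 200 sorted cells per pool and another a higher number. The study's methods give 200 for this mouse line and the higher number for its Olfr16 line. The comparison asks which transcripts differ after the agonist has been present for 5 h.

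The 26S proteasome is the protease that degrades ubiquitin-tagged proteins in the cytosol and nucleus. Its 20S core is a barrel of alpha and beta rings with the active sites of Psmb5, Psmb6 and Psmb7 inside. The 19S cap binds ubiquitin chains, removes them and unfolds the substrate with a ring of ATPases. In immune cells and after interferon, Psmb8, Psmb9 and Psmb10 take the places of the 3 catalytic subunits to form the immunoproteasome. When proteasome activity is short, the transcription factor encoded by Nfe2l1 is known to induce proteasome genes together through antioxidant response elements in their promoters.

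Promoters were therefore searched for the core of this element, TGACNNNGC, on both strands of the 300 bases around the start of each gene (RefSeq, GRCm38.p6). Promoters were found for 42 of the 50 genes. TGACNNNGC occurred in 6 of the 42 (14.3%), against 14.0% of the 27025 genes with a promoter in the same source. The 6 were Psmb5, Psmb6, Psmc6, Psmd9, Psmd12 and Psme4. The letters GGAAGT, found in many ETS-family sites, occurred in 20 of 42 (47.6%) against 26.5%, and CCAAT in 15 of 42 (35.7%) against 41.1%. These shares describe letters in a window and say nothing of binding. The promoters below are those of 2 catalytic subunits with TGACNNNGC and of Psmc1 and Psmd12, which had the highest differences between conditions. Capitals mark every match to TGACNNNGC or GGAAGT on either strand, and no 2 marked matches overlap in these 4. Psmb5 is shown at chr14:54617946-54618245, minus strand, Psmb6 at chr11:70525107-70525406, plus strand, Psmc1 at chr12:100109952-100110251, plus strand, and Psmd12 at chr11:107479278-107479577, plus strand.
Psmb5: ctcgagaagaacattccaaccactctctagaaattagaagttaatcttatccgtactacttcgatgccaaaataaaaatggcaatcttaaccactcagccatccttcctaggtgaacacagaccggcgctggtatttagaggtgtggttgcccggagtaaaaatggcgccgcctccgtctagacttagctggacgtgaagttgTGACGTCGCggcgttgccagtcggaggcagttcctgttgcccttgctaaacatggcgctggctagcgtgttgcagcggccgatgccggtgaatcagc
Psmb6: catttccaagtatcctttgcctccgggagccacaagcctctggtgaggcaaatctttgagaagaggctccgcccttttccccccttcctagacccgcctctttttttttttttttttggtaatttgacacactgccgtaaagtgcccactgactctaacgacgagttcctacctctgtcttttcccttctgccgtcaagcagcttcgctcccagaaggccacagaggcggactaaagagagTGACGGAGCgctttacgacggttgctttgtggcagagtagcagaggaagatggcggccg
Psmc1: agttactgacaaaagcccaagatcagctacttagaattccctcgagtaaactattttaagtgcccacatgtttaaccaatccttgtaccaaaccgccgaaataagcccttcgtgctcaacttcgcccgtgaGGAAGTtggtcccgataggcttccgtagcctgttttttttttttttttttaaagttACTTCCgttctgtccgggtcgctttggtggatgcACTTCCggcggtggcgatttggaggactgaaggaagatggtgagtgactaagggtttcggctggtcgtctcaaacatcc
Psmd12: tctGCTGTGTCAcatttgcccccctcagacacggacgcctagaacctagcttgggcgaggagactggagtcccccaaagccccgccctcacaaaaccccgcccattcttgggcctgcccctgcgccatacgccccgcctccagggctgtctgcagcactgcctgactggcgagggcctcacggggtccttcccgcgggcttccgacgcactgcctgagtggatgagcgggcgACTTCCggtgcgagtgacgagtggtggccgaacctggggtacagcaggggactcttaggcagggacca
The marked stretch of the Psmb5 and Psmb6 promoters is TGACNNNGC. The Psmd12 promoter holds 1 TGACNNNGC match and 1 GGAAGT match, and the Psmc1 promoter holds 3 GGAAGT matches and no TGACNNNGC match.

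Library totals lay between 42780403 and 49527380 counts, and spike-in RNA (ERCC) made up 0.249% to 0.631% of them. Markers of mature olfactory neurons were abundant in every library (Omp, 517814 to 774399 counts), and 4 of 11 such markers fell after exposure (Cnga2, Cnga4, Cngb1 and Rtp1) while none rose. Markers of myeloid cells are given beside the inducible subunits. Of the 7 markers of immature neurons and progenitors, 2 were tested and Gap43 (3936 to 9404 counts) rose. Gng8 had 325 to 1052 counts, and Neurod1 was at 0 in 4 libraries and 232 in exposed pool 3. The most abundant sustentacular and gland markers were Sec14l3 (2233 to 5423 counts), Cbr2 (1409 to 4963) and Cyp2a5 (835 to 4889). Erythroid Hbb-bs had 155 to 9667 counts, Hba-a1 66 to 3032 and Hba-a2 40 to 1043, all highest in control pool 1. Hba-a1 and Hba-a2 are near-identical, so their counts are uncertain. The horizontal basal markers Krt5, Trp63 and Krt15 had at most 77 counts, and of 6 lymphoid markers only Cd3e and Cd79a had any count, 6 at most.

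At rest, proteasome transcripts were abundant in these neurons. Levels are given as TPM, the count per base of exon scaled to the same total in each library. Summed over the 50 genes, they reached 8151, 6977 and 7500 TPM in control pools 1, 2 and 3, and 7723 and 7070 TPM in exposed pools 1 and 3, so the conditions overlapped. Psmc5, an ATPase of the 19S base, had the highest level, at 969.9, 912.6 and 952.1 TPM in the control pools and 988.3 and 961.9 TPM in the exposed pools. By mean control TPM it ranked 107 among the 10055 genes tested.

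**Figure D1:**
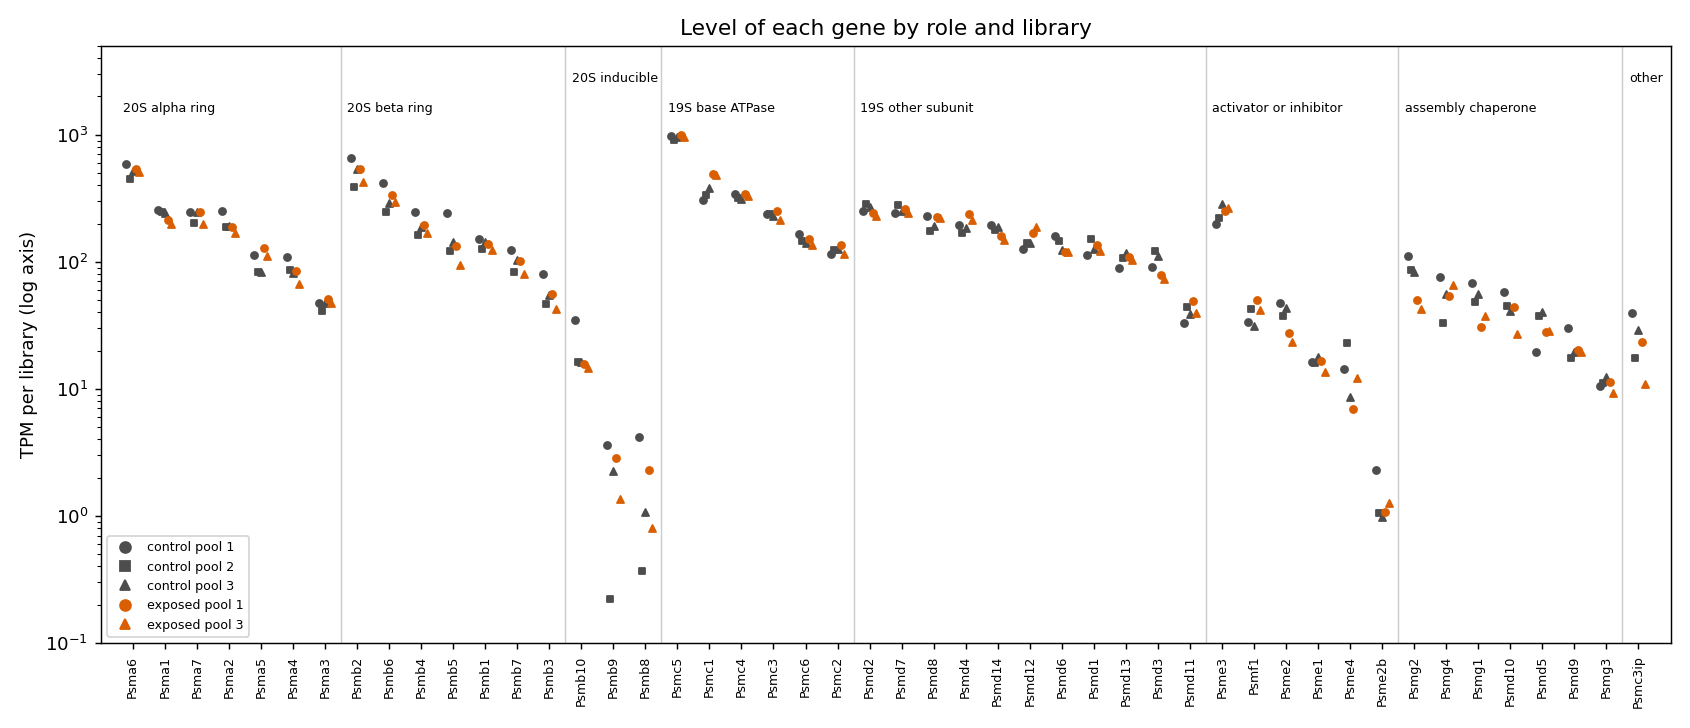
TPM (log axis) of each gene in each library, grouped by role and ordered by mean level, with control pools in grey and exposed pools in orange. Psma8 and Psmb11, with 0 counts in most or all libraries, are not drawn, and Psmc5 lies highest, while Psmb8, Psmb9 and Psme2b lie lowest.

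Subunits that are present once per ring in the assembled particle differed in transcript level by up to an order of magnitude. In the alpha ring, Psma6 was highest (mean of all libraries, 521 TPM) and Psma3 lowest (46.8 TPM), a ratio of 11.1. In the beta ring, Psmb2 (508.5 TPM) exceeded Psmb3 (56.0 TPM) by a ratio of 9.08. Among the ATPases the ratio of Psmc5 to Psmc2 (123.4 TPM) was 7.76. Among the other 19S subunits, Psmd2, a scaffold of the base (255.5 TPM), and Psmd11, a lid subunit (40.8 TPM), stood at the ends. These levels leave out reads that map to several places, and the loss for each gene was not measured. They also divide by the length of all exons of a gene, including exons of rare transcripts. Dividing by the principal transcript gave the same lowest alpha subunit, Psma3 (43.9 TPM), and the same highest ATPase, Psmc5 (694.2 TPM), but other genes at some of the ends. By this measure Psma7 (521.8 TPM) was the highest alpha subunit, Psmb6 (507.5 TPM) the highest and Psmb5 (99.8 TPM) the lowest beta subunit, and the ratio within the beta ring dropped to 5.09. Psmc6 (158.5 TPM) was then the lowest ATPase and Psmd4 (288.9 TPM) the highest of the other 19S subunits. The ratio was then 4.38 among the ATPases, 3.62 among the other 19S subunits and 11.9 in the alpha ring.

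In every pool the ends of each ring lay well apart. Psma6 had 593.6, 445.3 and 521.0 TPM in the control pools and 540.0 and 505.3 TPM in the exposed pools, whereas Psma3 had 47.5, 40.9 and 47.7 TPM and 50.7 and 47.3 TPM. Psmb2 had 655.1, 384.5 and 536.9 TPM in the control and 540.6 and 425.2 TPM in the exposed pools, against 79.7, 46.7 and 54.6 TPM and 56.2 and 42.9 TPM for Psmb3. For both genes of the beta ring control pool 1 was highest. Psmc2 had 115.8, 124.3 and 127.0 TPM in the control and 136.0 and 114.1 TPM in the exposed pools. Psmd2 had 249.8, 285.3 and 270.3 TPM in the control and 241.6 and 230.4 TPM in the exposed pools, and Psmd11 had 32.9, 43.7 and 38.9 TPM and 49.0 and 39.6 TPM.

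The activators spanned a wider range. Psme3, the gamma subunit of the nuclear 11S activator, had 199.4, 220.6 and 285.5 TPM in the control and 250.5 and 264.8 TPM in the exposed pools. Psme4, a large single-chain activator, was the lowest tested, at 14.3, 23.1 and 8.59 TPM in the control and 6.91 and 12.3 TPM in the exposed pools, a ratio of means of 18.7. Psme1 and Psme2, the interferon-inducible alpha and beta subunits of the 11S activator, were also low, with means over all libraries of 16.01 and 35.9 TPM. Assembly chaperones were low as a group (median 43.0 TPM, against 196.4 TPM in the alpha ring). They ranged from Psmg2 (74.5 TPM), which pairs with Psmg1 to build the alpha ring, to Psmg3 (10.9 TPM). Psmg3 had 10.5, 11.1 and 12.4 TPM in the control and 11.4 and 9.29 TPM in the exposed pools. Psmc3ip had 39.4, 17.6 and 29.0 TPM in the control and 23.2 and 10.9 TPM in the exposed pools.

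Of the 50 genes, 5 did not reach the count filter and were not tested. Psmb11, the thymus subunit, had 0 counts in every library, which allows up to 0.0606 to 0.0701 CPM, the count scaled to an equal library total (3 counts, counting error only). Psma8, the testis subunit, had 2 counts in control pool 3 and 0 elsewhere. Psme2b, a copy of Psme2, had 26, 12 and 11 counts in the control and 13 and 14 in the exposed pools, and since reads that map to several places were not counted its level is uncertain. Psmb8 and Psmb9 are described below with Psmb10. Exons of Psmc3ip (21.2%, with Mlx), Psmb8 (14.7%, with Gm20496), Psmb7 (11.8%, with Nek6) and Psmd13 (10.1%, with Sirt3) are shared with a gene on the opposite strand, and those of Psmb5 (12.1%, with Mir686) with one on the same strand. Reads over several genes were not counted, so the levels of these genes, and shares made from them, are uncertain.

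The constitutive catalytic subunits far exceeded their inducible counterparts. Psmb5 had 239.9, 120.6 and 143.8 TPM in the control and 132.2 and 93.8 TPM in the exposed pools. Psmb6 had 414.0, 245.2 and 292.5 TPM and 332.9 and 294.6 TPM, and Psmb7 had 124.3, 83.3 and 104.0 TPM and 100.6 and 79.9 TPM. Control pool 1 was highest for all 3. Psmb8 had 4.18, 0.37 and 1.07 TPM in the control and 2.30 and 0.80 TPM in the exposed pools, from 191, 17, 48, 112 and 36 counts. Psmb9 had 3.602, 0.221 and 2.24 TPM and 2.88 and 1.36 TPM, from 178, 11, 109, 152 and 66 counts. Psmb8 and Psmb9 were thus highest in pool 1 of both conditions and lowest in control pool 2.

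As a share of each pair (inducible over inducible plus constitutive, by TPM), Psmb8 made up 0.306% to 1.71% and Psmb9 0.0900% to 0.863% of the pair. Psmb10 made up 13.6% to 22.0% of the pair with Psmb7, above the shares of Psmb8 and Psmb9. The size of this share depended on the length used. By all exons, mean levels were 19.6 TPM for Psmb10 and 98.4 TPM for Psmb7. Divided by the principal transcript they were 17.4 and 198.6 TPM, which makes the share smaller. For Psmb8 and Psmb5 the means were 1.74 and 146.1 TPM by all exons. By the principal transcript they were 2.48 and 99.8 TPM, which makes the share of Psmb8 larger. The gap between the shares of Psmb10 and Psmb8 is thus narrower by that length. Psmb10 had 35.0, 16.4 and 16.3 TPM in the control and 15.8 and 14.5 TPM in the exposed pools, with control pool 1 above the rest. Its log2 fold change was -0.43 (SE 0.53, edgeR adjusted p = 0.703) and became 0.11 without control pool 1.

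The level of the inducible subunits was set beside 18 myeloid markers, since myeloid cells express the immunoproteasome. Summed, these markers reached 493.7, 43.2 and 24.5 CPM in the control and 541.3 and 104.1 CPM in the exposed pools, highest in pool 1 of both conditions. The most abundant were Cd74 (9902, 622, 221, 11785 and 196 counts, in the same order), Lyz2 (2728, 530, 534, 2471 and 423) and Ctss (1980, 167, 8, 2589 and 301). Of the 18, 8 were tested and 1, Fcer1g, rose, and all 18 had counts in at least 1 library. Of the genes that define the lineage, Csf1r was at 0 in control pools 2 and 3 and Adgre1 in every library but control pool 1. The 2 libraries highest in the summed myeloid markers were also highest for Psmb8 and Psmb9. Cd74 alone gave 229.9 CPM of that sum in control pool 1 and 277.4 CPM in exposed pool 1. Not all markers followed pool 1, since Ptprc had 0, 54, 1, 542 and 517 counts and Fcer1g 241, 107, 74, 776 and 851. Control pool 3, lowest in the myeloid sum, had more Psmb9 than control pool 2. The part of myeloid cells in these levels was not tested. In pooled RNA, fewer cells of a type and less RNA per cell cannot be told apart. The 10 genes of MHC class I processing, 8 of them tested, gave 0 calls in either direction. Over all genes tested, 3.42% were called higher and 1.85% lower, so 0 of 8 says little.

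**Figure D2:**
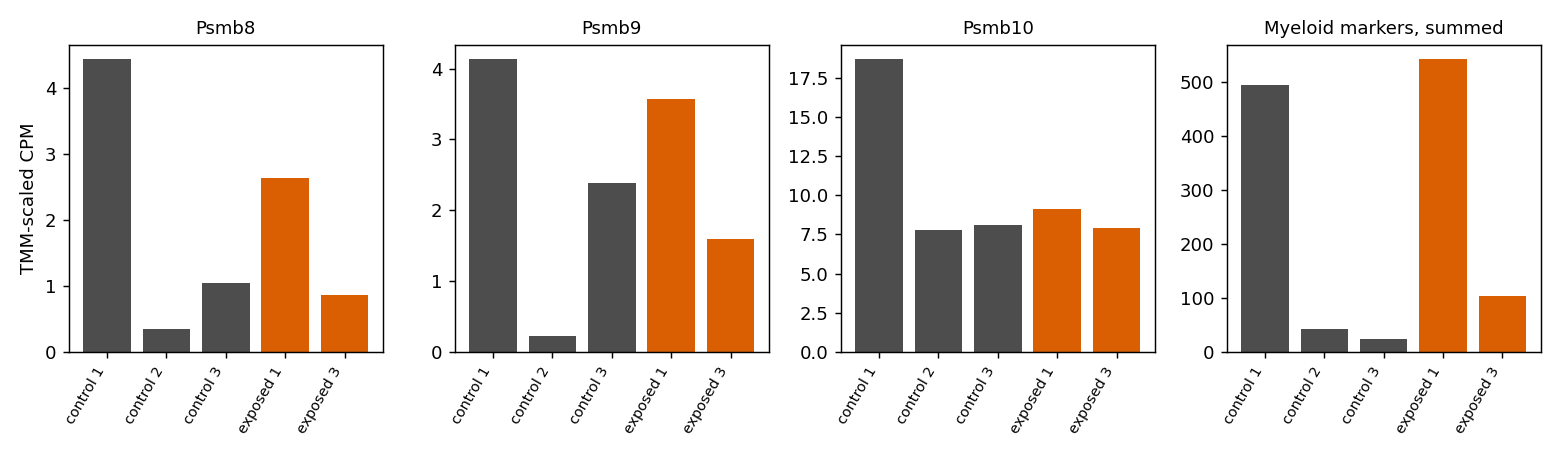
Bars from 0 show the CPM, scaled by TMM, of Psmb8, Psmb9 and Psmb10 and the summed CPM of 18 myeloid markers in each library (control in grey, exposed in orange, each panel with its own axis). Psmb8, Psmb9 and the summed myeloid markers are highest in pool 1 of both conditions, and Psmb10 is highest in control pool 1.

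After acetophenone, 1 of the 45 proteasome genes tested passed the threshold. Psmc1, an ATPase of the 19S base (chr12:100110154-100123405, plus strand, GRCm38), rose by 0.69 on the log2 scale, and no gene fell. The test was edgeR's quasi-likelihood test, fitted over the 10055 genes that reached 140 counts throughout at least 1 of the conditions. A gene was called at a Benjamini-Hochberg adjusted p under 0.1 and a log2 fold change beyond 0.5. Over all genes, 3.42% were called higher and 1.85% lower, so 1 of 45 higher and 0 of 45 lower is no more than the background. At an unadjusted p under 0.05 there were 5 of the 45, 4 of them higher. Over all genes tested, 19.1% were under that p, and 9.22% were under it and higher.

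Psmc1 had 7997, 8771 and 9752 counts in the control and 13722 and 12263 in the exposed pools, or 185.7, 179.3 and 213.0 CPM against 323.0 and 296.2 CPM after TMM scaling. Both exposed pools lay above all control pools. The log2 fold change was 0.69 (SE 0.15, 95% interval 0.33 to 1.04, edgeR adjusted p = 0.0693). The call depended on the settings. The count threshold behind the filter was settled after results for these genes had been seen, and at 3 counts, an earlier version of it, the edgeR adjusted p was 0.104 and the call was lost. The call was also lost in the study's own form of test (DESeq2 against a log2 fold change of 0.5, adjusted p = 1), with ERCC scaling, and without control pool 1, control pool 2, exposed pool 1 or exposed pool 3 (edgeR adjusted p = 0.101 to 0.380), and it was kept without control pool 3 (adjusted p = 0.0704). The log2 fold change itself stayed between 0.46 and 0.79 in all these fits.

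The next differences did not pass. Psmd12, a lid subunit, had 103.8, 102.9 and 109.0 CPM in the control and 152.4 and 159.0 CPM in the exposed pools, with a log2 fold change of 0.57 (SE 0.15, edgeR adjusted p = 0.1203). Its exposed pools lay above all control pools by more than either condition's spread. Psmf1, an inhibitor of the 20S core in vitro, had 67.9, 76.3 and 58.4 CPM against 108.8 and 85.7 CPM, also without overlap (0.53, SE 0.22, adjusted p = 0.254). Psmd4, the ubiquitin receptor of the base, was named after its values were seen. It had 170.8, 132.5 and 150.5 CPM against 225.8 and 192.6 CPM (0.47, SE 0.17, edgeR adjusted p = 0.212).

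At the other end stood a pair of assembly chaperones that work as a dimer. Psmg2 had 60.4, 41.8 and 41.8 CPM in the control and 29.3 and 23.7 CPM in the exposed pools, a log2 fold change of -0.86 (SE 0.29, edgeR adjusted p = 0.186). Psmg1 had 28.8, 17.99 and 21.8 CPM against 14.03 and 16.1 CPM (-0.60, SE 0.35, edgeR adjusted p = 0.393). For both genes the exposed pools lay below every control pool, yet neither passed. DESeq2 against 0 called Psmg2 (log2 fold change -0.84, adjusted p = 0.0611), and that test was added after the data were seen. Psmc3ip, with 22.4, 8.89 and 15.3 CPM against 14.3 and 6.33 CPM, had the third lowest value (-0.59, SE 0.55, edgeR adjusted p = 0.615), and its pools overlapped. That value rested on single libraries, being -0.142 without exposed pool 3, -0.22 without control pool 1 and -1.308 without exposed pool 1.

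**Figure D3:**
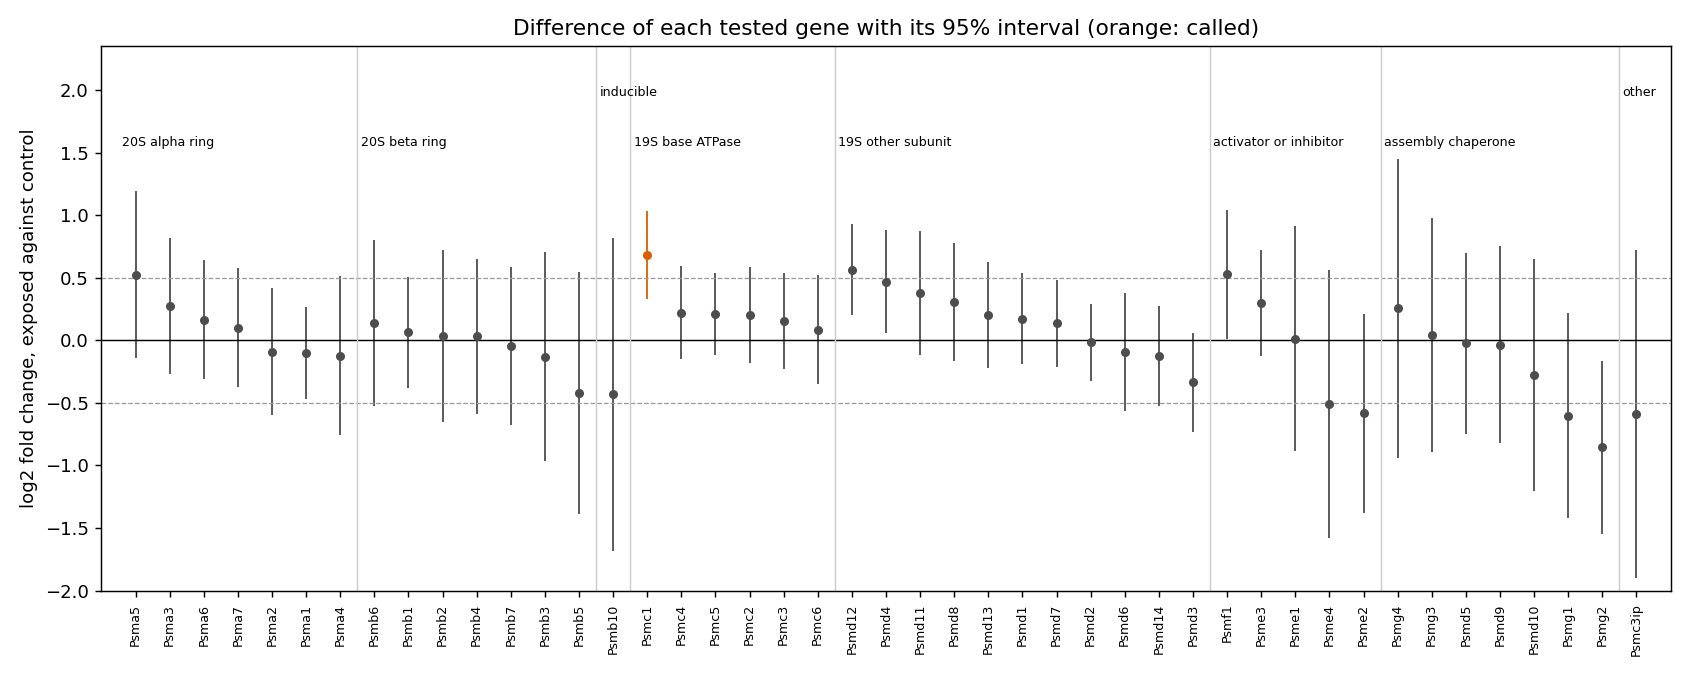
Log2 fold change (exposed against control) of the 45 tested genes, grouped by role, with bars for the 95% interval and dashed lines at -0.5 and 0.5. Psmc1 is the only gene called, the 6 base ATPases lie above 0 (3 of 6 do with ERCC scaling), and the intervals of Psmc1, Psmd12, Psmd4, Psmf1 and Psmg2 do not reach 0.

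Across the 45 genes the differences were small. Their median log2 fold change was 0.04 (-0.03 over all genes tested), with 26 above 0 and 19 below. The majority turned with single libraries, since 17 of 45 were above 0 without exposed pool 1 and 19 without control pool 2, but 33 of 45 without control pool 1 and 34 of 46 without exposed pool 3. With ERCC scaling 14 of 45 were above 0, the median was -0.105 and that over all genes -0.233. The median size of the difference was 0.20, against 0.37 over all genes, and the median SE was 0.22, against 0.33. These comparisons were not matched for level, and most of the 45 genes were among the more abundant genes tested. For 33 of 45 the 95% interval lay within -1 and 1, and this held for 28 of the 31 constitutive subunits of the 20S and 19S. Within -0.5 and 0.5 it lay for 3. These intervals hold for TMM scaling only. With ERCC scaling the SE was 0.72 for Psmc1 and 0.78 for Psmb5, against 0.15 and 0.41, so a change beyond 2-fold is not excluded. Both exposed pools lay above all control pools in 10 of 45 genes and below in 4, against 20.3% and 19.6% of all genes tested. The 4 below were Psmg1, Psmg2, Psme2 and Psmd3, the other two named after their values were seen. Psme2 had 26.2, 18.3 and 22.3 CPM against 16.6 and 13.2 CPM (-0.58, edgeR adjusted p = 0.395). Psmd3, a lid subunit, had 142.4, 167.1 and 160.9 CPM against 133.0 and 115.7 CPM (-0.34, edgeR adjusted p = 0.333).

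By role, all 6 base ATPases were above 0 (median 0.21, range 0.08 to 0.69), but with ERCC scaling, where the median of all genes was -0.23, 3 of 6 were (median -0.01, range -0.10 to 0.46), and without exposed pool 1, 4 of 6 were (median 0.07). Their control levels varied little, with the highest control pool at most 1.24 times the lowest. Summed, they reached 2134, 2071 and 2140 TPM in the control and 2360 and 2233 TPM in the exposed pools. Psmc1, the gene called, gave 306.4, 333.5 and 378.6 TPM of this in the control and 492.1 and 478.9 TPM in the exposed pools. By CPM the pools overlapped in 4 of the 6 ATPases, so the sum is no sign of a shift of the whole ring. The other 19S subunits were above 0 in 7 of 11 genes (median 0.17, range -0.34 to 0.57). The alpha ring was above 0 in 4 of 7 (median 0.10) and the beta ring in 4 of 7 (median 0.03, range -0.42 to 0.14). Assembly chaperones were above 0 in 2 of 7 (median -0.04, range -0.86 to 0.26). Their summed level was 373.3, 278.5 and 308.3 TPM in the control and 237.8 and 229.3 TPM in the exposed pools. This sum includes Psmg1 and Psmg2, named above for their low differences. By CPM these were the 2 with exposed pools below every control pool, and in the other 5 the pools overlapped. The sum is therefore no sign of a fall across the group. The counts above 0 moved with single libraries. Of the beta ring, 0 of 7 were above 0 without exposed pool 1 (median -0.21) or control pool 2 (-0.17), and with the pool number as a block (-0.18), but 6 of 7 without control pool 1 or exposed pool 3. Of the alpha ring, 3 of 7 were above 0 without exposed pool 1 or control pool 2 and 6 of 7 without control pool 1 or exposed pool 3. Of the chaperones, 1 of 7 was above 0 without exposed pool 1 or control pool 2, 3 without control pool 1 or control pool 3 and 4 without exposed pool 3. With ERCC scaling, 4 of 11 other 19S subunits, 3 of 7 alpha, 1 of 7 beta subunits and 1 of 7 chaperones were above 0. No test was made between roles.

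Among the catalytic subunits, no difference exceeded the spread between pools. Psmb5 had 67.6, 30.2 and 37.6 CPM in the control and 40.4 and 27.0 CPM in the exposed pools, with a log2 fold change of -0.42 (95% interval -1.39 to 0.54, edgeR adjusted p = 0.624). It was -0.001 without control pool 1, -0.186 without exposed pool 3 and -0.753 without exposed pool 1. The interval ran from -0.53 to 0.80 for Psmb6 and from -0.68 to 0.59 for Psmb7. In all 7 genes of the beta ring the conditions overlapped.

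The beta ring had the widest spread between control pools of the constitutive groups. Its highest control pool was up to 1.99 times the lowest by TPM (median 1.69), against at most 1.35 times in the alpha ring and 1.24 times among the base ATPases. All 7 beta subunits were highest in control pool 1 and lowest in control pool 2, with CPM ratios of 1.37 to 2.24. This ratio tended to be lower for longer transcripts, with exceptions. Across the 45 genes, the ratio of control pool 1 to control pool 2 decreased with the length of the principal transcript (Spearman's rho -0.66, a description over genes that share these libraries). Psmg4 (555 bases) had a ratio of 2.62 and Psme4 (6491 bases) one of 0.70. Against this order, Psmg3 (808 bases) had a ratio of 1.07 and Psmd9 (2597 bases) one of 1.94. A decrease with length was also seen over 9609 genes tested with a length (rho -0.40). Transcripts under 1000 bases had a median log2 ratio of 0.70, and those over 4000 bases one of -0.28. The 8 proteasome genes under 1000 bases lay 0.48 above the control mean in control pool 1 and 0.41 below it in control pool 2 (medians, log2). In the exposed pools these genes lay at 0.22 and -0.15, inside the range of the control pools. The part of transcript length in the differences between conditions was not tested.

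**Figure D4:**
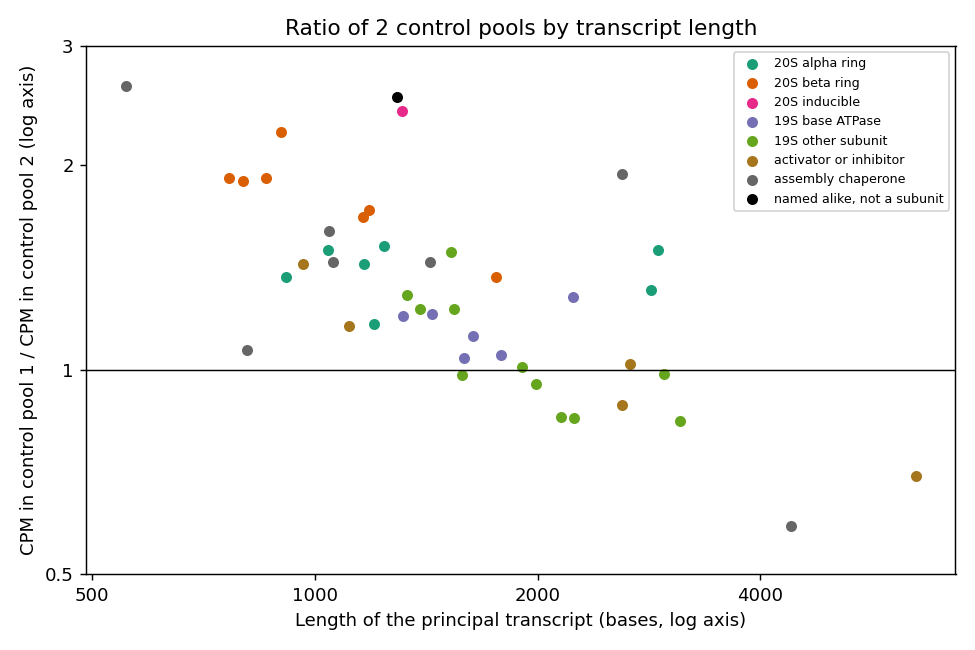
Ratio of CPM in control pool 1 to CPM in control pool 2 against the length of the principal transcript, both on log axes, for the 45 tested genes, coloured by role. Short transcripts, the beta ring among them, lie above 1 and most transcripts over 2000 bases near or below it.

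Summed over all 50 genes as CPM, the proteasome transcripts reached 6177, 5047 and 5474 in the control and 6527 and 5638 in the exposed pools, a ratio of means of 1.09. The exposed pools overlapped the control pools. By TPM the ratio was 0.98 and by ERCC scaling 0.95, so the side of 1 depended on the scale. With ERCC scaling the sums were 3752.5, 7776.2 and 6491.9 in the control and 4539.6 and 6906.2 in the exposed pools. Against that spread, the ratio of 0.95 shows no direction.

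Genes that work with the proteasome gave no calls, but their differences spanned a wider range. Of 24 partners listed, 23 were found and tested, and 0 passed in either direction with edgeR (median log2 fold change 0.09). Over all genes tested, 3.42% were called higher and 1.85% lower, so 0 of 23 says little. Their log2 fold changes ran from -2.87 to 0.76, against -0.86 to 0.69 over the 45 proteasome genes and -6.77 to 14.13 over all genes tested. The low end was set by Akirin2, Zfand5 and Ube3c (SE 0.92, 0.82 and 0.61), whose control pools lay apart, as given below. Pomp, the maturation factor of the core, had 6483, 5835 and 7455 counts in the control and 6874 and 5454 in the exposed pools (log2 fold change 0.03, edgeR adjusted p = 0.963). Nfe2l1, the transcription factor that induces proteasome genes, had 5641, 8174 and 9194 counts against 8716 and 7620 (0.23, adjusted p = 0.602). Adrm1, a ubiquitin receptor of the 19S, had 664, 580 and 609 counts against 1072 and 721 (0.66, edgeR adjusted p = 0.353). Usp14, a deubiquitinase bound to the cap, had 2338, 2579 and 2264 counts against 3217 and 2376 (0.35, adjusted p = 0.444). For Adrm1 and Usp14 both exposed pools lay above all control pools after scaling, and for Pomp and Nfe2l1 the pools overlapped.

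Ubb, a polyubiquitin gene, had 33059, 24009 and 26813 counts in the control and 33677 and 27030 in the exposed pools (log2 fold change 0.23, edgeR adjusted p = 0.591). Uba1, the enzyme that activates ubiquitin, had 21469, 28448 and 26775 counts against 28189 and 27600 (0.26, edgeR adjusted p = 0.333). Rps27a (41 to 124 counts), which encodes ubiquitin fused to a ribosomal protein, was under the filter. It has near-identical copies in the genome, so its counts are uncertain.

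A trio of partners, named after their values were seen, separated the control pools. Akirin2, needed to import proteasomes into the nucleus, was counted 3048, 2460 and 364 times in the control pools, and 202 and 290 times in the exposed ones. Control pool 3 thus lay near the exposed pools, and the log2 fold change of -2.87 (SE 0.92) did not pass (edgeR adjusted p = 0.175). Ube3c, a ubiquitin ligase of the proteasome, showed the same order with 5138, 5116 and 1342 counts against 920 and 1186 (-1.75, edgeR adjusted p = 0.2001). Zfand5, an activator of the proteasome, had 3412, 3607 and 602 counts against 388 and 858 (-1.89, edgeR adjusted p = 0.280). They were picked for this order, so their passing once control pool 3 is left out (edgeR adjusted p = 0.0110, 0.0148 and 0.0387) follows from the choice and supports nothing. In that fit 429 of 10276 genes were called lower, against 186 of 10055 with all pools.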

How the data were processed

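FACS-seq libraries of Olfr151-transcribing neurons were analysed as deposited. The authors mapped reads with STAR 2.7.0a on GRCm38 and made counts with featureCounts 1.6.3, unstranded and leaving out reads with several matching places or genes. The deposited counts are whole numbers per gene, neither filtered nor normalized. The authors used DESeq2 1.30.1 for their own test.

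Genes were named with GENCODE M21 (55144 of 55411). Counts were tested in R 4.3.3 with edgeR 4.0.16 (TMM, robust glmQLFit, glmQLFTest, condition only, all 5 libraries, ERCC rows left out), over genes that reached 140 counts throughout at least 1 condition. This threshold is the first dip below the upper mode in the density of log2 counts. The rule was settled after 2 earlier readings of it, 3 and 11 counts, had been run and the results for these genes seen. Alternatives were DESeq2 1.42.0, other scalings, filters and thresholds, the pool number as a block, and single libraries left out. The procedure was tested on simulated data, in which the share of false calls was above the nominal level, so calls near the threshold are less certain than their adjusted p.

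TPM used exon lengths of the deposited tables. No molecular identifiers were used, so limits from a count of 0 cover counting error only. The members and lists were chosen with earlier results of these data known. Genes named with values were the catalytic subunits and their counterparts, called genes, the 3 highest and 3 lowest differences, the highest and lowest level of each role, untested genes, and listed partners. Exceptions are said in the text. Some listed ubiquitin genes are not reported here, and counts over the pathway lists leave them out. Of the series, only these 5 libraries were analysed here. The labels give 3 consecutive days, but tie no pool to a day.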

Additional observations from a re-analysis of the deposited data

How the results depend on the processing

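Of 384 alternative values of the 24 named proteasome genes, 352 kept their direction and their side of the threshold, 10 lost the call (all Psmc1), 2 gained one and 20 changed sign, none of the latter called. The count of proteasome genes called higher, 1 as reported, was 0 with DESeq2 at a log2 fold change of 0.5, ERCC scaling, 10 counts in 2 libraries, 3 counts in every library of 1 condition, an adjusted p of 0.05 and the replicate block, and 2 with DESeq2 against 0 (Psmc1 and Psmd12), which also called 1 lower (Psmg2). It ranged from 0 to 1 with single libraries left out, being 0 without control pool 1, control pool 2, exposed pool 1 or exposed pool 3. Of the pathway genes reported, 0 were called higher and 0 lower with edgeR. These counts were 0 and 1 with DESeq2 at 0.5 and with ERCC scaling and 1 and 5 with DESeq2 against 0. With libraries left out, the count called lower ranged from 0 to 3, being 3 without control pool 3. The summed level, 1.09 as a ratio, was 0.981 by TPM and 0.953 by ERCC. Over all genes, 344 higher and 186 lower calls became 94 and 49 with ERCC scaling, 162 and 74 at 10 counts, 202 and 124 with DESeq2 at 0.5, 725 and 769 with DESeq2 against 0, and 11 and 0 with the block.

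Signs changed with ERCC scaling for Psmc2 (-0.047), Nfe2l1 (-0.058), Psmb2 (-0.105), Pomp (-0.189) and Psmg3 (-0.214), where the median of all genes was -0.233 and that of the 45 genes -0.105, and without a filter for Psmd2 (0.006). Whether the pool numbers pair the samples could not be settled. The correlation of deviations from the condition mean was 0.024 for pool 1 and -0.069 for pool 3. With 2 exposed pools, their deviations mirror each other, so these values cannot exclude pairing. With the replicate block the median was -0.026, and Psmg3 (-0.022), Psmb6 (-0.026), Pomp (-0.101) and Psmb2 (-0.181) changed sign. With libraries left out, values ran for Psmb6 from -0.044 to 0.444, for Psmb7 from -0.279 to 0.170, for Psmb10 from -0.641 to 0.114, for Psmb2 from -0.210 to 0.289, for Psmb3 from -0.400 to 0.192, for Psmd2 from -0.107 to 0.033, for Psmg3 from -0.173 to 0.192 and for Pomp from -0.142 to 0.147. Without a change of sign, they ran for Psmf1 from 0.332 to 0.662 and for Psmg1 from -0.741 to -0.393. The median of the 45 genes ranged from -0.11 to 0.19. The causes were not tested. With 2 exposed pools, the spread of that condition rests on 1 difference per gene.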
